A study of Arabidopsis thaliana with 6 samples.

Results

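The atcep1 mutant of Arabidopsis thaliana (Columbia) was followed through the last step of anther development that the study sampled: flower buds whose anthers were at stages 10 to 11 (class C) were set against buds whose anthers were at stages 7 to 9 (class B). The comparison uses 2 of the 6 libraries of the series, atcep1 C and atcep1 B, each 1 library with no replicate. The other 4 libraries are atcep1 buds of class A (anther stages 5 to 6) and wild-type (WT) buds of classes A, B and C. Transcripts were measured by poly(A) RNA sequencing of total RNA from whole buds, so every library also holds sepals, petals, carpels and filaments. The labels name the mutation only as atcep1; they do not give the allele, the age of the plants or how many plants or buds were pooled. Counts and RPKM (reads per kilobase of transcript, scaled to the reads of the library) of transcript models were summed to loci, which gave 25964 loci with a read in any library.

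CEP1 is a papain-like cysteine protease of the KDEL-tailed class and is known for its part in the programmed cell death of the tapetum. The tapetum is the innermost wall layer of the anther. It feeds the microspores, makes the enzymes that dissolve callose around the tetrads, builds the sporopollenin precursors of the outer pollen wall (the exine), and then breaks down and leaves lipids and proteins on the grain as the pollen coat. At the later stages the pollen itself transcribes genes for cell wall loosening, ion and sugar uptake and tube growth, while the filament elongates under jasmonate-dependent MYB factors.

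The atcep1 C library held 4.41 M (megareads) of uniquely assigned reads, the atcep1 B library 4.16 M, the WT C library 4.25 M and the WT B library 4.10 M. At these depths 3 reads on a transcript of 1 kb equal 0.680 RPKM in atcep1 C and 0.721 RPKM in atcep1 B. Intervals of read ratios are 95% exact binomial intervals of the ratio of read shares; they cover counting error only, and the spread between plants is unknown. The stage labels were checked on markers: all 4 tapetum markers (AMS, MS2, ATA20 and AT5G07230) were over 2-fold lower at C than at B, and the pollen markers VGD1 and ADF7 were over 2-fold higher, with log2 ratios of 0.56 and 0.84 for the pollen markers ACT11 and AHA6. Markers of other organs were present in both libraries, mostly at similar levels, with the ovule marker INO at 12.3 RPKM at C and 6.54 RPKM at B. The petal and stamen identity gene AP3 had 275 RPKM at C and 318 RPKM at B, the carpel gene CRC had 100 RPKM at C and 114 RPKM at B, and the small Rubisco subunit gene RBCS1A had 3522 reads at C and 3398 at B. The endothecium regulator AT3G13890 and the stem cell peptide gene CLV3 had no read in either atcep1 library. Whole buds were sampled, so fewer cells of a type and less RNA per cell cannot be told apart in any value given here.

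CEP1 itself (AT5G50260) was near the limit of detection. It had 4, 5 and 6 reads in the atcep1 A, B and C libraries, and 0, 1 and 6 reads in the WT A, B and C libraries. The atcep1 levels were 0.883 RPKM at C and 0.780 RPKM at B, a read ratio of 1.13 (0.288 to 4.69). The counts of the 2 genotypes at C were the same, so the gene's reads check neither the genotype label nor a change between the stages at this depth.

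A locus was counted as changed where log2((RPKM at C + 1)/(RPKM at B + 1)) was at least 1 in size and the higher of both values was at least 5 RPKM. Of 13537 loci that reached 5 RPKM in atcep1, 819 rose (6.05%) and 441 fell (3.26%) at C relative to B. In the WT step, which shares no library with the atcep1 step, 598 of 13271 loci rose (4.51%) and 396 fell (2.98%). The median log2 ratio over all these loci was -0.09 in atcep1 and -0.01 in WT, and 60.6% of them lay below 0 in atcep1 and 51.0% in WT. Rises of 4-fold or more numbered 294 in atcep1 and 67 in WT, and falls of that size 112 in atcep1 and 118 in WT. The 819 rising loci took 8.73% of all reads in atcep1 C and 2.90% in atcep1 B, while the 441 falling loci took 0.644% at C and 2.24% at B. Over all loci that reached 5 RPKM in atcep1, called or not, the counting interval of the read ratio lay wholly past 2-fold upward for 542 and downward for 177.

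**Figure D1:**
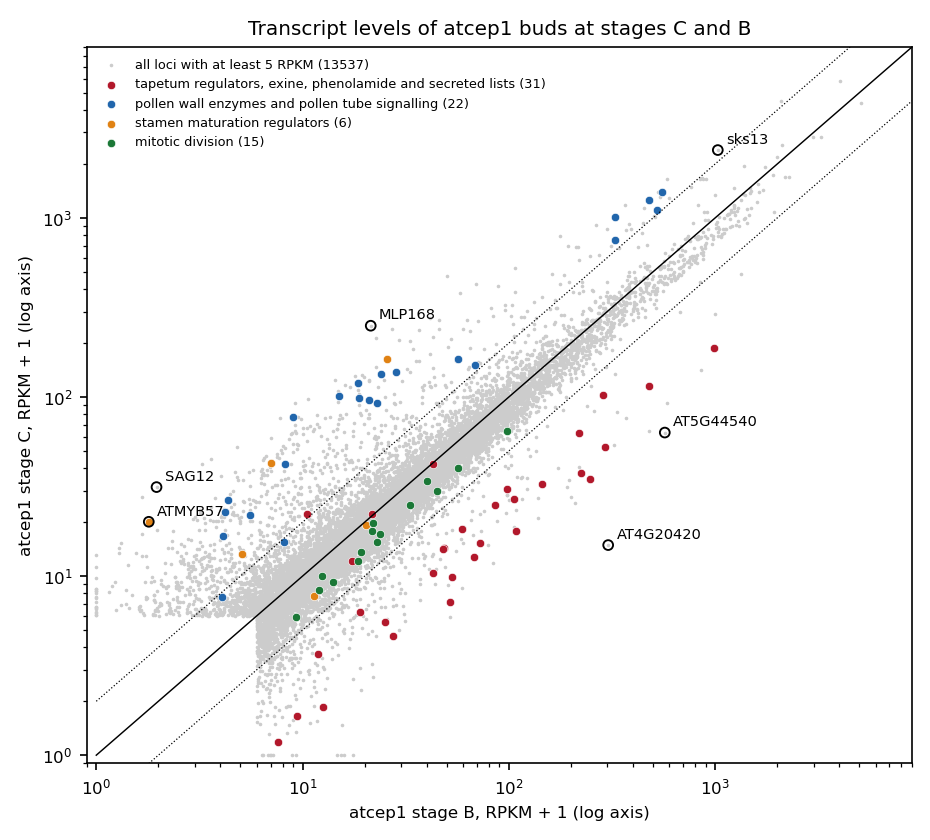
Transcript levels of all loci that reached 5 RPKM in atcep1 buds, as RPKM + 1 on log axes, with stage C on the vertical axis and stage B on the horizontal axis; each point is 1 locus in 1 library a stage, the solid line marks equal levels and the dotted lines 2-fold. Members of the tapetal lists (red) lie mostly below the lower line, pollen wall and pollen tube genes (blue) mostly above the upper line, and the 15 mitotic genes (green) just under the line of equal levels.

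The 12 largest falls included a pair of genes annotated as tapetum specific, 4 annotated as lipid transfer proteins and 6 of other kinds. AT4G20420, annotated as tapetum specific protein TAP35/TAP44, had 13.9 RPKM at C and 302 RPKM at B (40 and 823 reads), a log2 ratio of -4.35 and a read ratio of 0.0459 (0.0325 to 0.0630). A second gene with the same annotation, AT5G44540, had 62.3 RPKM at C and 569 RPKM at B, a read ratio of 0.110 (0.0881 to 0.135). Both were already high in class A, with 1148 and 1483 reads. AT3G52130, AT5G52160, AT5G62080 and AT3G07450, whose annotation is bifunctional inhibitor and lipid transfer protein, fell alongside them. AT3G52130 had 64.0 RPKM at C and 478 RPKM at B (log2 ratio -2.88), and AT5G52160 had 24.7 RPKM at C and 208 RPKM at B (log2 ratio -3.02). The fasciclin-like arabinogalactan gene AT5G26730 had 26.5 RPKM at C and 200 RPKM at B (log2 ratio -2.87). AT2G31035 had no read at C and 15 at B, at least 5.30-fold lower against a floor of 3 reads per library. The remaining falls rested on few reads at C: the F-box associated gene AT1G30780 had 3 reads at C and 88 at B, the Rossmann-fold gene AT1G76470 had 7 at C and 92 at B, the cupredoxin gene AT3G17675 had 3 at C and 34 at B, and the peroxidase gene AT2G18150 had 3 at C and 56 at B.

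The largest rises were of several kinds. SAG12, the senescence-associated papain-like protease, had 30.4 RPKM at C and 0.959 RPKM at B (168 and 5 reads), a read ratio of 31.7 (13.3 to 98.9). MLP168, which encodes a major latex protein-like protein, had 249 RPKM at C and 20.4 RPKM at B, a read ratio of 12.2 (9.53 to 15.9). AAE11, an acyl-activating enzyme gene, had 43.8 RPKM at C and 2.59 RPKM at B, a read ratio of 16.9 (10.8 to 28.0). The glycosyl hydrolase gene AT5G20390 had 41.0 RPKM at C and 2.27 RPKM at B, a read ratio of 18.1 (10.2 to 35.5). ATEXPA11, which encodes an expansin that loosens cell walls, had 51.9 RPKM at C and 3.80 RPKM at B, a read ratio of 13.7 (8.49 to 23.4). AT2G27315 had 43 reads at C and 1 at B, a ratio of 40.6 whose interval runs between 6.90 and 1639. AT1G14455 had 31 reads at C and 0 at B, at least 9.75-fold higher against the floor of 3 reads per library. Of the 12 largest rises, 4 were genes for proteins with domain DUF1278 (AT2G27315, AT4G35165, AT5G54062 and AT2G14378).

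The 250 bases before the start of 6 of these genes are shown because the genes lie at the ends of the range and, for the TAP35/TAP44 pair, moved together. They were read from the TAIR10.1 genome of RefSeq, on the gene's strand. Capitals mark every match, on either strand, of the motifs GTGA and AGAAA, which are reported in late pollen gene promoters of tobacco and tomato, and of the G-box CACGTG; their complements read TCAC and TTTCT. The windows are chr4:11016720-11016969 (plus strand) for AT4G20420, chr5:17941647-17941896 (minus strand) for AT5G44540, chr3:19332598-19332847 (minus strand) for AT3G52130, chr2:11690005-11690254 (minus strand) for AT2G27315, chr1:12957091-12957340 (minus strand) for MLP168 and chr5:18612989-18613238 (plus strand) for SAG12.
AT4G20420: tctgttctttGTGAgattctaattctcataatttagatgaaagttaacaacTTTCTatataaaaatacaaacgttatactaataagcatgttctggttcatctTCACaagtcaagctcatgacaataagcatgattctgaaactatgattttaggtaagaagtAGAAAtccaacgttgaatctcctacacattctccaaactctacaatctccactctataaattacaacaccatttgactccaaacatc
AT5G44540: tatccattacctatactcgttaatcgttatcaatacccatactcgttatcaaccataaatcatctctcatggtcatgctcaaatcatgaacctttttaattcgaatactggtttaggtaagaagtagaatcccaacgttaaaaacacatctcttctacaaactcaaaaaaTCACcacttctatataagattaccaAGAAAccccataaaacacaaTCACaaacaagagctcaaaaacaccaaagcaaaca
AT3G52130: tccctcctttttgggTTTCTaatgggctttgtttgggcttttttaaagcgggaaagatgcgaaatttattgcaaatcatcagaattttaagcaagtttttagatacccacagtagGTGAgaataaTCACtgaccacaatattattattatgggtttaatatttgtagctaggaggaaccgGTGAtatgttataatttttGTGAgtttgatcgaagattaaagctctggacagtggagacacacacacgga
AT2G27315: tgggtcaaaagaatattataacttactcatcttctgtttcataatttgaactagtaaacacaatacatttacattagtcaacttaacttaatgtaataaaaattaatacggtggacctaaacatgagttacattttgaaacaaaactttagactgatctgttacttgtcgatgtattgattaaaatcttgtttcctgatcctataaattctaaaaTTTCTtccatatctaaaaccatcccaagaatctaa
MLP168: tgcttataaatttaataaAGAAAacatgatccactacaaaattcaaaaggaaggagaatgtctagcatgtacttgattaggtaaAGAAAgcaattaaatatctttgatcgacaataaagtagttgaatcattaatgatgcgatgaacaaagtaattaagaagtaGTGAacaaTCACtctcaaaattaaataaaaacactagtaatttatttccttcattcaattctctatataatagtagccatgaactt
SAG12: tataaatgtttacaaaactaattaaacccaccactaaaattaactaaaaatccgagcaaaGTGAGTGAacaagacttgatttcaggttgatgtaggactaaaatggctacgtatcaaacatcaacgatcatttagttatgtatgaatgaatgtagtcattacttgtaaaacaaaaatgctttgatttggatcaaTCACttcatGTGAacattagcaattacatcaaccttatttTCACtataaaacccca
The TAP35/TAP44 promoters share the run tttaggtaagaagtagaa of 18 bases, which begins 101 bases before the start of AT4G20420 and 139 bases before the start of AT5G44540 and occurs on the gene's strand in 2 of the 27443 promoters searched. GTGA was found in 7 of the 12 promoters of the largest rises (58.3%), in 12 of 12 promoters of the largest falls and in 77.5% of all 27443. AGAAA was found in 11 of the 12 rises (91.7%), in 9 of the 12 falls (75%) and in 82.5% of all. CACGTG was found in 1 of the 12 rises (8.33%), in 0 of the 12 falls and in 6.49% of all. A match is a run of letters and says nothing of binding.

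Among the regulators of the tapetum, 7 of the 9 that reached 5 RPKM (of 13 listed) fell and 0 rose, with a median log2 ratio of -2.24 against -0.09 over all loci. AMS, the basic helix-loop-helix (bHLH) factor that switches on the genes for the pollen wall, had 14.4 RPKM at C and 71.5 RPKM at B (120 and 563 reads), a read ratio of 0.201 (0.164 to 0.245). ATMYB35 (TDF1), which acts upstream of AMS, had 3 reads at C and 36 at B. MYB99, a MYB factor of the late tapetum, had 4 reads at C and 51 at B, and the AT-hook gene AT2G42940 (TEK), needed for the inner exine, had 1 read at C and 33 at B. The bHLH genes AT2G31220 and AT2G31210 had log2 ratios of -2.57 and -1.70. SPL, which starts sporogenous cell formation, had 5.34 RPKM at C and 17.9 RPKM at B. The receptor kinase EMS1, which sets tapetal identity, stood apart with 21.3 RPKM at C and 20.7 RPKM at B, a read ratio of 1.03 (0.879 to 1.20), and its ligand TPD1 had 11.2 RPKM at C and 16.4 RPKM at B. DYT1, AtMYB103, MS1 and AT1G06170 stayed below 5 RPKM in both libraries. The whole list held 0.0137% of reads in atcep1 C and 0.0350% in atcep1 B, against 0.0157% in WT C and 0.0229% in WT B.

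The genes that make sporopollenin fell nearly as a block. Of the 9 members that reached 5 RPKM (of 14 listed), 8 fell and 0 rose (median log2 ratio -2.15). ACOS5, the acyl-CoA synthetase that opens the pathway, had 6.19 RPKM at C and 50.6 RPKM at B, a read ratio of 0.122 (0.0876 to 0.167). The polyketide synthase LAP5 had 16.8 RPKM at C and 107 RPKM at B (log2 ratio -2.60), and its partner LAP6 had 26.1 RPKM at C and 105 RPKM at B (log2 ratio -1.97). DRL1, the tetraketide reductase, had 31.6 RPKM at C and 143 RPKM at B. MS2, the fatty acyl reductase, had 11.8 RPKM at C and 67.1 RPKM at B (log2 ratio -2.41). The fatty acid hydroxylases CYP703A2 and CYP704B1 had log2 ratios of -1.77 and -1.76. WBC27 (ABCG26), the exporter of the wall precursors, had 4.52 RPKM at C and 24.0 RPKM at B. NPU, needed for the primexine on which sporopollenin settles, had 41.1 RPKM at C and 41.8 RPKM at B, a read ratio of 0.983 (0.790 to 1.22). The list's share of reads was 0.0224% in atcep1 C and 0.0927% in atcep1 B, and 0.0122% in WT C and 0.0306% in WT B.

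All 4 genes of the phenolamide branch, which makes the spermidine conjugates laid on the pollen wall, fell. The spermidine hydroxycinnamoyl transferase SHT had 23.9 RPKM at C and 85.0 RPKM at B, a read ratio of 0.281 (0.234 to 0.335). The hydroxylases CYP98A8 and CYP98A9 had log2 ratios of -1.70 and -2.43. The methyltransferase ATTSM1 had 62.0 RPKM at C and 218 RPKM at B in atcep1 (log2 ratio -1.79), and 30 and 370 reads in WT C and WT B (log2 ratio -3.52).

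Genes for secreted tapetal proteins and for the tetrad wall included 8 falls and 1 rise among the 9 of 12 members that reached 5 RPKM. The abundant transcripts all fell but remained well above the detection limit at C. ATA27, a glycosyl hydrolase, had 114 RPKM at C and 477 RPKM at B, a read ratio of 0.239 (0.223 to 0.257). The lipid transfer protein gene LTP12 had 187 RPKM at C and 986 RPKM at B, and the lipid transfer-type gene ATA7 had 51.6 RPKM at C and 291 RPKM at B. MEE48, a family 17 glycosyl hydrolase, had 101 RPKM at C and 286 RPKM at B in atcep1 (740 and 1980 reads), against 5 reads in WT C and 259 in WT B. XTH3, an endotransglucosylase of the hemicellulose xyloglucan, had 36.7 RPKM at C and 222 RPKM at B. CALS5, the callose synthase of the tetrad wall and of pollen tubes, went the other way, with 21.3 RPKM at C and 9.53 RPKM at B, a read ratio of 2.23 (1.91 to 2.61). The list held 0.0768% of reads in atcep1 C and 0.276% in atcep1 B, and 0.0114% in WT C and 0.0821% in WT B.

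Pollen coat genes were mixed. Of the 12 of 17 members that reached 5 RPKM, 6 fell and 1 rose (median log2 ratio -0.85). The extracellular lipase EXL4 had 92.0 RPKM at C and 584 RPKM at B, a read ratio of 0.157 (0.143 to 0.173), and EXL6 had 84.1 RPKM at C and 181 RPKM at B. The oleosin-type coat protein gene GRP20 had 483 RPKM at C and 1337 RPKM at B, a read ratio of 0.361 (0.341 to 0.383), and GRP18 and GRP19 had log2 ratios of -1.30 and -1.11. GRP17, a coat protein needed for hydration on the stigma, had 35.6 RPKM at C and 54.5 RPKM at B, but unique reads covered only 12.6% of its length at C. The sterol transporter gene ABCG9 had 3.79 RPKM at C and 14.8 RPKM at B. The cuticle wax gene FLP1 had 181 RPKM at C and 131 RPKM at B (log2 ratio 0.46). The list's share was 0.207%, 0.286% and 0.139% in atcep1 A, B and C.

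**Figure D2:**
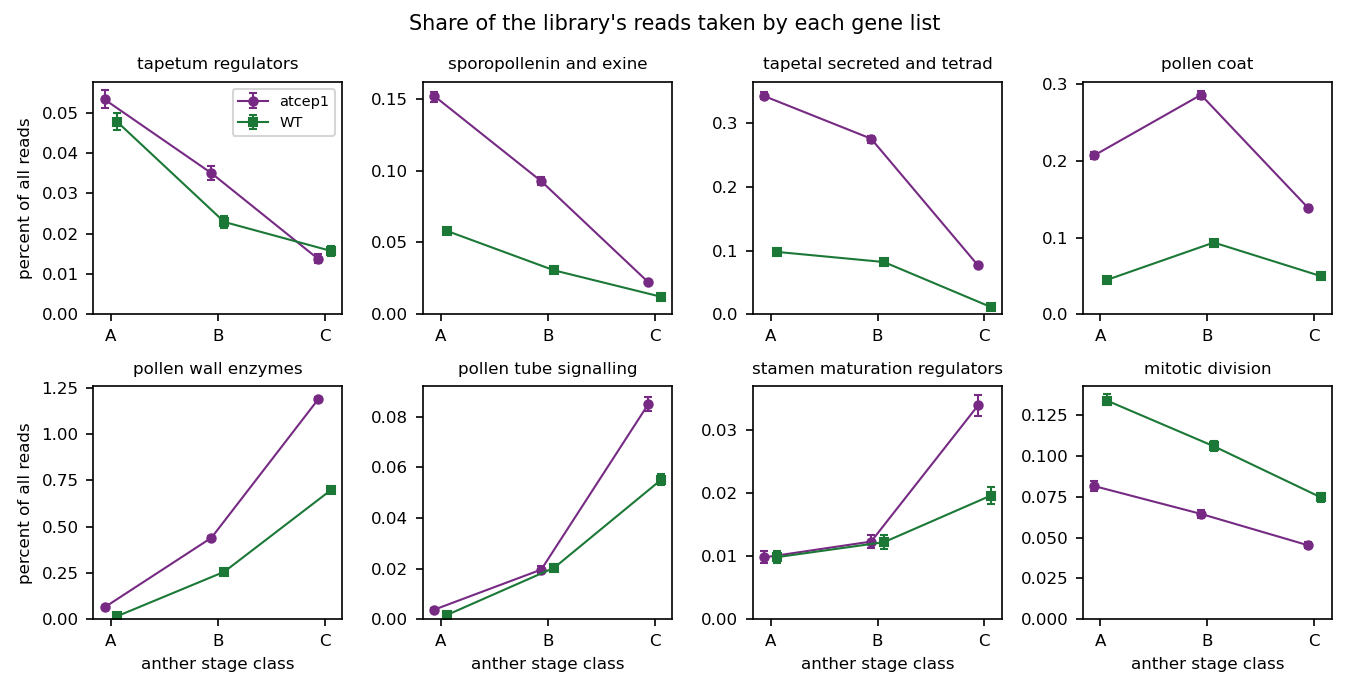
Percent of all reads of a library taken by 8 gene lists at anther stage classes A, B and C, in atcep1 (purple circles) and WT (green squares); each point is 1 library and bars are exact 95% binomial intervals, which cover counting error only. The tapetal lists and mitotic genes decline between B and C in both genotypes, and the pollen wall, pollen tube and stamen maturation lists climb, with the pollen wall list at 1.19% in atcep1 C and 0.440% in atcep1 B.

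Enzymes that loosen or build the pollen and pollen tube wall rose most evenly. Of 15 members, 14 rose and 0 fell, with a median log2 ratio of 1.97. The pectin methylesterase VGD1, needed for pollen tube growth in the style, had 1253 RPKM at C and 477 RPKM at B, a read ratio of 2.63 (2.54 to 2.72). VGDH2 and ATPPME1, also pectin methylesterases, had log2 ratios of 1.20 and 1.07, and the polygalacturonase PGA4 had 1392 RPKM at C and 552 RPKM at B. The pectate lyase AT59 changed more, with 99.9 RPKM at C and 14.0 RPKM at B, a read ratio of 7.13 (5.80 to 8.85). The cellulose synthase-like genes ATCSLD1 and ATCSLD4, which act in pollen tube walls, had read ratios of 6.78 (4.93 to 9.51) and 4.56 (3.50 to 6.03). Among the leucine-rich repeat genes of the list, AT4G33970 had 76.5 RPKM at C and 8.01 RPKM at B (log2 ratio 3.11) and AT3G19020 had 133 RPKM at C and 23.1 RPKM at B (log2 ratio 2.48). The most abundant members had the smaller ratios, between 1.07 and 1.63 on the log2 scale for the 5 members above 500 RPKM at C. The list held 1.19% of reads in atcep1 C and 0.440% in atcep1 B, and 0.699% in WT C and 0.256% in WT B.

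Annotation families of pectin enzymes went in the same direction, but by annotation they share genes such as VGD1 and AT59 with this list. Among 65 pectinesterases and pectinesterase inhibitors, 37 rose and 0 fell in atcep1 (19 of 49 rose in WT), and their share of reads was 0.979% in atcep1 C and 0.423% in atcep1 B. The inhibitor gene APPB1 had 239 RPKM at C and 26.0 RPKM at B, a read ratio of 9.18 (7.40 to 11.5), and PMEI1, an inhibitor as well, had 58.0 RPKM at C and 6.02 RPKM at B. Of 52 pectate lyases and polygalacturonases, 18 rose (34.6%) and 0 fell in atcep1. In WT 18 of 49 rose (36.7%) and 1 fell. Over all loci 6.05% rose in atcep1 and 4.51% in WT. Among these genes AT5G48140 had 206 RPKM at C and 28.2 RPKM at B in atcep1. Expansins were mixed, with 4 rises (22.2%) and 0 falls among 18, a median log2 ratio of 0.04 and 7 of the 18 below 0. The copper oxidase-like gene sks13 had the most reads of any locus at C, with 20025 at C and 8125 at B, and AT5G19580, a glyoxal oxidase-related gene, had 15306 at C and 5128 at B, a read ratio of 2.82 (2.73 to 2.91).

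Receptors and peptides of the pollen tube rose in 6 of the 7 cases that reached 5 RPKM, of 9 listed (median log2 ratio 2.02). The receptor kinase ANX2, which keeps the growing tube intact, had 25.6 RPKM at C and 3.36 RPKM at B, a read ratio of 7.63 (5.38 to 11.1). Its close relative ANX1 had 14.5 RPKM at C and 7.15 RPKM at B, a log2 ratio of 0.93. The peptides RALFL4 and RALFL19, which bind receptors of this family, had log2 ratios of 1.54 and 2.02. The malectin-type receptor kinase AT4G39110 had 98.2 RPKM at C and 17.8 RPKM at B, and the pollen receptor kinase ATPRK2A had 95.7 RPKM at C and 19.9 RPKM at B.

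Pumps and transporters of pollen were split, with 5 rises and 2 falls among the 13 of 15 that reached 5 RPKM. The proton pump gene AHA8 had 143 RPKM at C and 31.0 RPKM at B, a read ratio of 4.59 (4.11 to 5.14), and the sugar carrier gene STP11 had 38.2 RPKM at C and 5.75 RPKM at B. The other sugar carrier gene ATSTP2, known from early pollen, fell to 5.92 RPKM at C, against 27.4 RPKM at B. NLM6, an aquaporin-family gene of the tapetum, fell to 7.53 RPKM at C, against 23.9 RPKM at B. The main proton pump gene of the list by level, AHA6, had 221 RPKM at C and 123 RPKM at B (log2 ratio 0.84). In the actin cytoskeleton list 1 of 7 members rose, ADF7, an actin-depolymerising factor of pollen, with 50.3 RPKM at C and 21.5 RPKM at B.

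Pollen transcription factors and male germline genes gave 1 rise and 1 fall. Of the 9 of 16 transcription factors that reached 5 RPKM, AGL66 rose (12.1 RPKM at C and 4.91 RPKM at B), WRKY34 fell (2.26 RPKM at C and 6.05 RPKM at B), and the median log2 ratio was 0.09. The male germline regulator DUO1 had 6 reads at C and 8 at B. The sperm histone gene ATMGH3 had 29 reads at C and 24 at B, a read ratio of 1.14 (0.641 to 2.05).

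**Figure D3:**
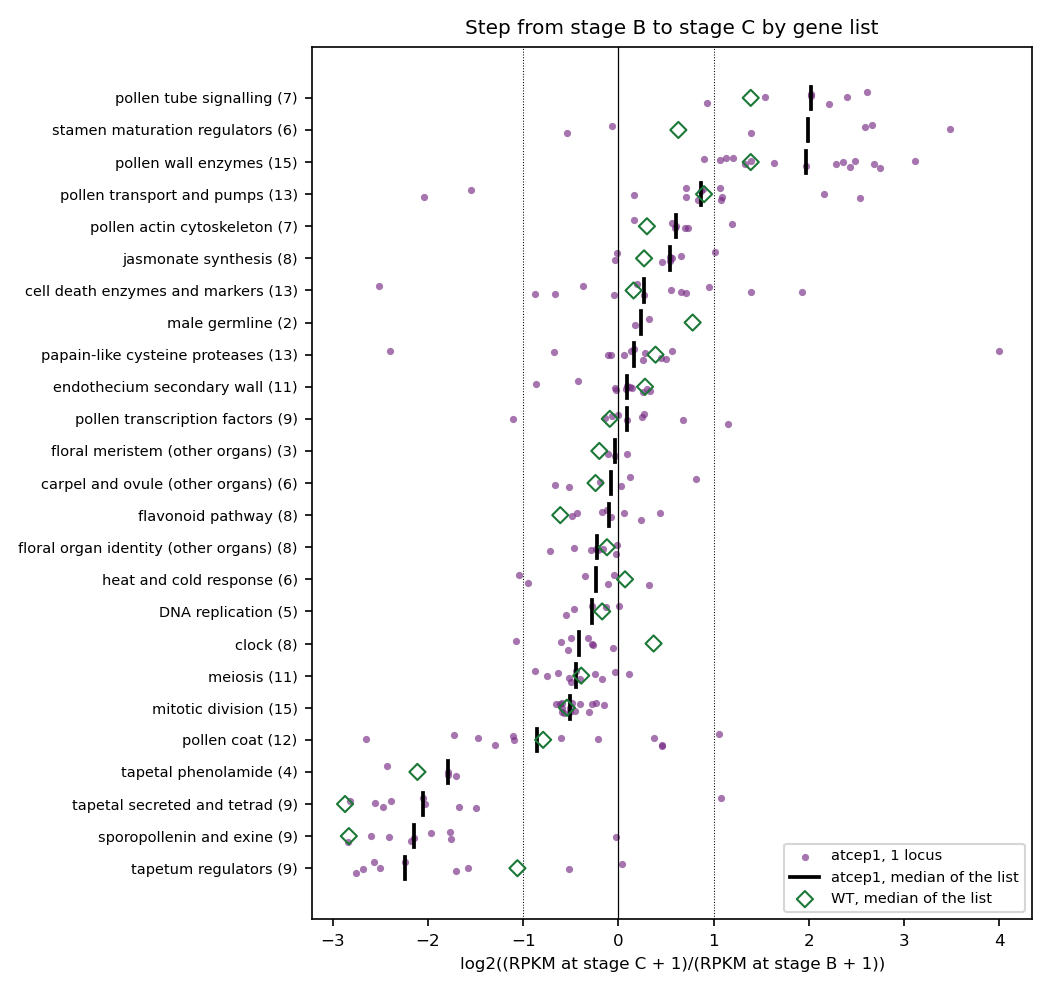
log2((RPKM at C + 1)/(RPKM at B + 1)) of the members of 25 gene lists that reached 5 RPKM in atcep1 (number in parentheses), each purple point 1 locus. Black bars are the atcep1 medians and dotted lines mark 2-fold. Green diamonds are the WT medians over the members that reached 5 RPKM in WT, which are not always the same loci. The medians of the pollen tube, stamen maturation and pollen wall lists stand at 2.02, 1.99 and 1.97, that of the tapetum regulators at -2.24, and that of the floral organ identity genes at -0.22.

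Regulators of stamen maturation rose in 4 of the 6 cases that reached 5 RPKM, of 10 listed, and in 3 of 6 in WT. The median log2 ratio was 1.99 in atcep1 and 0.63 in WT. These medians are not over the same members, since ATMYB57 reached 5 RPKM only in atcep1. ATMYB21, the main jasmonate-responsive MYB of the filament, had 161 RPKM at C and 24.7 RPKM at B, a read ratio of 6.53 (5.34 to 8.05). MYB24 had 41.6 RPKM at C and 6.05 RPKM at B, a read ratio of 6.87 (4.51 to 10.9). ATMYB57, which acts with both, had 127 reads at C and 5 at B, a read ratio of 24.0 (10.0 to 75.1). MYB108, which acts in stamen maturation and anther opening, had 12.3 RPKM at C and 4.09 RPKM at B, a read ratio of 3.02 (1.99 to 4.71). In WT the read ratios of ATMYB21, MYB24 and MYB108 were 3.84, 5.47 and 2.90. That of ATMYB57 in WT was 24.1, from 25 reads at C and 1 at B. The jasmonate receptor gene COI1 had 18.2 RPKM at C and 19.2 RPKM at B. Of 8 jasmonate synthesis genes, LOX2, a lipoxygenase gene, rose, with 1028 RPKM at C and 507 RPKM at B and a read ratio of 2.03 (1.97 to 2.09); 5 others had log2 ratios between 0.46 and 0.66. The endothecium list, genes for the thickened walls that open the anther, had 0 rises and 0 falls among 11 and a median log2 ratio of 0.09; its regulator NST1 had 5.58 RPKM at C and 11.0 RPKM at B.

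Papain-like proteases, the family of CEP1, gave 1 rise and 1 fall among the 13 of 20 that reached 5 RPKM (7.69% each, against 6.05% and 3.26% over all loci; median log2 ratio 0.16). The rise was SAG12, described above, which had 19, 5 and 168 reads in atcep1 A, B and C and 0, 0 and 1 reads in WT A, B and C. The fall was AT1G06260, with 14.0 RPKM at C and 78.2 RPKM at B, a read ratio of 0.179 (0.135 to 0.234). The relatives of CEP1 with the same KDEL tail stayed below 5 RPKM, CEP2 with 19 reads at C and 4 at B and CEP3 with 13 reads at C and 6 at B. The abundant vacuolar proteases RD21 and RD19 had log2 ratios of 0.56 and 0.16. Among cell death enzymes and markers 2 of 13 rose and 1 fell. The metacaspase AtMC9, which clears dying xylem cells, had 12.3 RPKM at C and 2.50 RPKM at B, a read ratio of 4.93 (2.70 to 9.74), with 1 read in WT C and 0 in WT B. AT4G18425 had 18.0 RPKM at C and 6.25 RPKM at B. UND, a tapetal aspartic protease gene, had 3 reads at C and 39 at B. The senescence nuclease BFN1 had 17.3 RPKM at C and 10.2 RPKM at B (log2 ratio 0.71), and the ribonuclease RNS3 had 16.9 RPKM at C and 8.28 RPKM at B (log2 ratio 0.95).

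**Figure D4:**
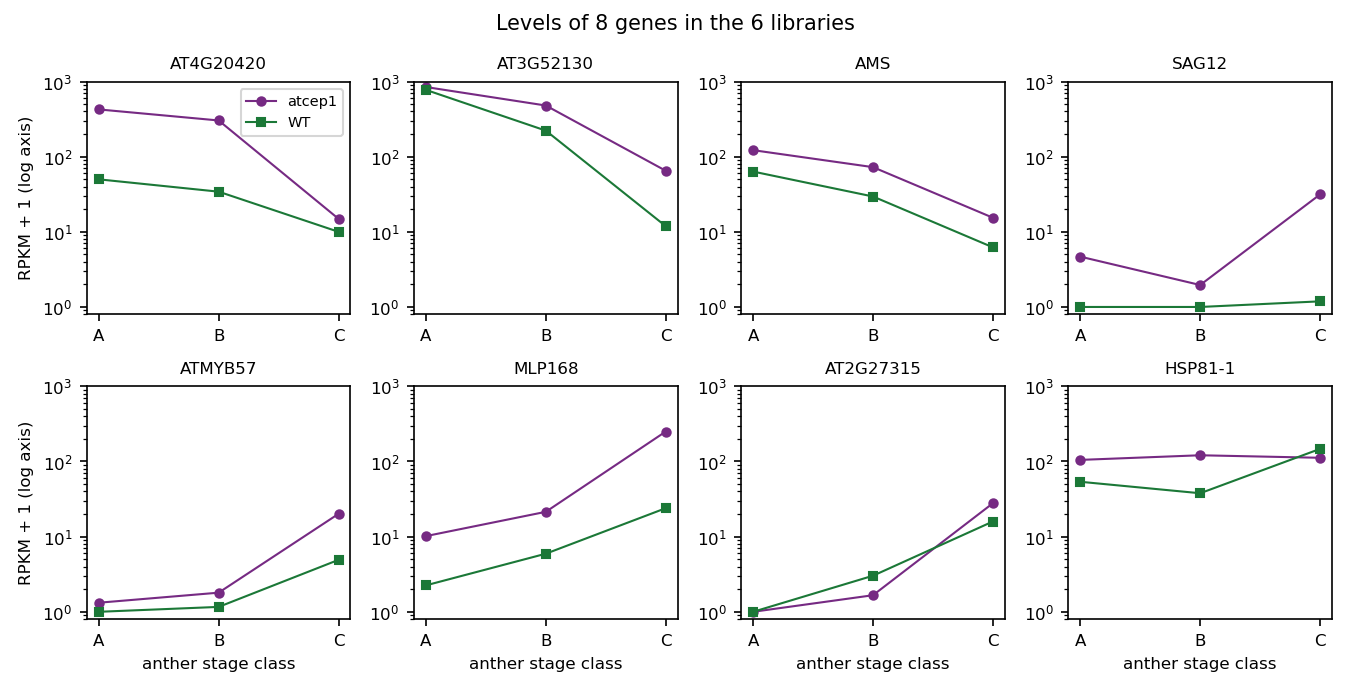
RPKM + 1 on a log axis of 8 genes at anther stage classes A, B and C in atcep1 (purple circles) and WT (green squares), 1 library a point with no error bar because there are no replicates. AT4G20420, AT3G52130 and AMS drop between B and C in both genotypes, SAG12 stands at 30.4 RPKM in atcep1 C and 0.188 RPKM in WT C, and HSP81-1 is flat in atcep1 but not in WT.

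Families of small secreted proteins differed in direction. Of 69 cysteine-rich secreted peptides that reached 5 RPKM, 35 rose (50.7%) and 2 fell (median log2 ratio 1.01), and their share of reads was 0.432% at C and 0.270% at B. The low-molecular-weight cysteine-rich gene LCR17 had 617 RPKM at C and 272 RPKM at B, whereas LCR66 had 46 reads at C and 258 at B. Lipid transfer proteins had 8 rises (14.8%) and 19 falls (35.2%) among 54; 36 of the 54 lay below 0, and their share of reads was 0.671% at C and 0.685% at B. Arabinogalactan and Ole e 1 proteins had 14 rises and 7 falls among 63, and FLA20, a fasciclin-like gene, had 2 reads at C and 44 at B. Several further families were picked after their values were seen, and over all loci 6.05% rose and 3.26% fell. Some of them share genes with families counted elsewhere here, so their counts are not separate. S1 self-incompatibility-like genes had 9 rises and 1 fall among 12, led by AT1G51250 with 96.5 RPKM at C and 9.65 RPKM at B. DUF1216 genes had 8 rises and 0 falls among 11. Of these 8, 6 lie on chromosome 3 between AT3G28750, which starts at 10791591, and AT3G28840, which ends at 10839946 (TAIR10.1). AT3G28810 of this cluster had 44.5 RPKM at C and 5.52 RPKM at B, and AT3G28840 had 440 RPKM at C and 194 RPKM at B. Peroxidases had 11 rises (28.9%) and 5 falls (13.2%) among 38, cytochromes P450 6 rises (7.32%) and 8 falls (9.76%) among 82, and MYB proteins 6 rises (12.2%) and 9 falls (18.4%) among 49. Low-molecular-weight cysteine-rich genes, which share LCR66 with the cysteine-rich secreted peptides, had 10 rises and 1 fall among 17. Small heat shock proteins had 1 rise and 3 falls among 25, and SKU5-similar proteins 4 rises and 2 falls among 13. A mixed set of ethylene response factors, AP2/B3-like factors and phosphatidic acid phosphatases had 4 rises and 7 falls among 39. Its rises included ERF110 and its falls ERF12 and RAP2.9, and the other changed members were AP2/B3-like factors or phosphatidic acid phosphatases. MATE and ABC proteins had 5 rises and 2 falls among 50, and oleosin and glycine-rich proteins 3 rises and 5 falls among 39. Lipid transfer proteins of the 2S albumin type had 5 rises and 18 falls among 44. They share genes such as AT3G07450, AT3G52130 and AT5G52160 with the lipid transfer proteins above. The rest of these families included a mixed set of receptor-like kinases, leucine-rich repeat proteins and other proteins with receptor in their description. This set had 16 rises (6.27%) and 5 falls among 255. Of the falls, AT3G20450 and AT4G11845 are annotated as receptor-associated proteins and AtRLP44 as a receptor-like protein. The fall AT3G59510 and rises such as AT1G49490 are annotated as leucine-rich repeat proteins, not as kinases. The rises AT4G33970 and AT3G19020 are also in the pollen wall list. Calcium-binding and calmodulin-binding proteins had 4 rises (6.15%) and 2 falls (3.08%) among 65. Both of these falls, SARD1 and AT3G13600, and the rise AT3G58480 are annotated as calmodulin-binding. Family 17 glycosyl hydrolases had 1 rise and 1 fall among 19, and WRKY factors 0 rises and 1 fall among 31.

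The broad families are set against the 6.05% of rises and 3.26% of falls over all loci. Protein kinases had 40 rises and 2 falls (0.503%) among 398, transporters 26 rises (10.5%) and 8 falls (3.23%) among 248, and GDSL lipases 5 rises and 5 falls (12.2% each) among 41. RING and F-box proteins had 29 rises (3.60%) and 20 falls (2.48%) among 805. Pentatricopeptide repeat proteins had 0 rises and 1 fall among 99, and nuclear photosystem genes 0 rises and 1 fall among 62. CDEF1, a cutinase-type GDSL lipase of pollen, was among the rises, with 52.1 RPKM at C and 7.08 RPKM at B.

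The DUF1278 genes, also picked after their values were seen, include the egg cell-secreted EC1 peptides, which act in gamete fusion. Of 17 loci with a read in any library, 9 reached 5 RPKM in atcep1, of which 8 rose and 1 fell. In WT 7 rose and 1 fell among 8. Over all loci 6.05% rose and 3.26% fell in atcep1. The 8 rises had at most 1.32 RPKM at B, so they passed the minimum only through stage C and their count carries little weight. With no minimum, 13 of the 17 loci had more reads per library total at C than at B in atcep1, and 13 in WT. The 17 loci together had 380 reads at C and 607 at B in atcep1, and 201 reads at C and 181 at B in WT; AT5G48210 alone held 107 of these at C and 589 at B in atcep1. Without it the family had 273 reads at C and 18 at B in atcep1, and 184 reads at C and 34 at B in WT. EC1.1 had 17 reads at C and 0 at B, and EC1.4 had 9 reads at C and 2 at B. AT5G48210, the single fall and the member with most reads, had 33.3 RPKM at C and 194 RPKM at B (log2 ratio -2.51). Beside the EC1 genes, the ovule integument marker INO had 12.3 RPKM at C and 6.54 RPKM at B, a read ratio of 1.89 (1.20 to 3.03). The ovule marker STK had 5 reads at C and 2 at B, a ratio of 2.36 (0.386 to 24.8). The other carpel and ovule markers, SHP1 and CRC, had read ratios of 1.19 (0.575 to 2.53) and 0.875 (0.764 to 1.00). In WT, INO had 128 reads at C and 126 at B. The part of ovules in the rise was not tested.

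Genes of cell division were somewhat lower at C. All 15 mitotic genes that reached 5 RPKM, of 20 listed, had log2 ratios below 0, between -0.65 and -0.15, but none passed 2-fold (median -0.51); 60.6% of all loci lay below 0. The mitotic kinase CDKB2;1 had 63.7 RPKM at C and 96.6 RPKM at B, a read ratio of 0.659 (0.576 to 0.754), and the cytokinesis syntaxin SYP111 had 39.0 RPKM at C and 55.9 RPKM at B. The list's share was 0.0453% in atcep1 C and 0.0645% in atcep1 B, against 0.0747% in WT C and 0.106% in WT B. The 11 meiosis genes had 0 rises and 0 falls and a median of -0.44; the recombinase ATDMC1 had 9.06 RPKM at C and 17.5 RPKM at B, a read ratio of 0.519 (0.366 to 0.728). The cytosolic ribosomal protein family was matched by description. Members such as AT2G03130, a fall annotated as ribosomal protein L12 or Clp protease adaptor ClpS, may not be cytosolic. The genes of the family had 255 of 273 log2 ratios below 0 in atcep1 (60.6% of all loci lay below 0), with 1 rise and 4 falls (median -0.37). They took 5.54% of reads in atcep1 C and 7.11% in atcep1 B. In WT their median was -0.01, with 8.13% of reads in WT C and 8.19% in WT B. The 5 DNA replication genes had 0 rises and 0 falls and a median of -0.28, and the 41 histone genes 0 rises and 0 falls and a median of -0.38.

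Lists of other floral organs held no locus past 2-fold. Floral organ identity genes (8 members), carpel and ovule genes (6) and floral meristem genes (3) had 0 rises and 0 falls, with median log2 ratios of -0.22, -0.08 and -0.04. The 8 flavonoid genes had 0 rises and 0 falls; CHS, the entry enzyme, had 1076 RPKM at C and 909 RPKM at B. All 8 clock genes that reached 5 RPKM lay below 0 in atcep1, as did 60.6% of all loci (median -0.41, 1 fall), whereas the WT median was 0.37. The blue-light receptor gene ADO3 was the fall, with 3.33 RPKM at C and 8.07 RPKM at B in atcep1, and 166 and 150 reads in WT C and WT B. The hour of harvest of each library is not given in the labels.

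The step of atcep1 was then set beside the step of WT. Of the 819 rises in atcep1, 391 also rose in WT, which is 47.7% of the atcep1 rises and 65.4% of the WT rises. Of the 441 falls, 182 also fell in WT, 41.3% of the atcep1 falls and 46.0% of the WT falls. These shares are limited by level, since 212 of the atcep1 rises and 104 of the atcep1 falls did not reach 5 RPKM in WT and could not be called there. The direction in WT was the same for 778 of the 819 atcep1 rises and 382 of the 441 falls. The atcep1 rises had a median ratio of RPKM + 1 of 3.27-fold in atcep1 and 2.14-fold in WT. The WT rises had a median log2 ratio of 1.48 in atcep1 and 1.38 in WT. The atcep1 falls had a median of -1.49 in atcep1 and -1.06 in WT, and the WT falls had medians of -0.98 in atcep1 and -1.52 in WT. Choosing loci on the ratio of a genotype favours larger values in that genotype, so these medians are a description. The median level of the atcep1 rises was 22.7 RPKM in atcep1 C and 5.72 RPKM in atcep1 B, and 11.6 RPKM in WT C and 5.21 RPKM in WT B.

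Differences between the 2 steps were taken over 12333 loci with at least 20 reads in each of the 4 libraries, as the log2 ratio of read ratios, atcep1 over WT, with Wald counting intervals. The median difference was -0.08, and 290 loci were at or above 1 and 279 at or below -1. The counting interval lay wholly past 1 for 57 loci and wholly past -1 for 31. The 8 largest each way were picked on the difference of the log2 ratios of RPKM + 1. Their values are given here as log2 ratios of read ratios. Of the 8 positive ones, atnudt21, a nudix hydrolase gene, had the largest value at 2.87 (2.42 to 3.32). It had 237 and 153 reads in atcep1 C and B and 84 and 405 reads in WT C and B. The other 7 of the 8 largest were of several kinds. The S1-like gene AT1G51250 had a difference of 2.19 (1.49 to 2.90), the DUF1216 gene AT3G28810 2.36 (1.58 to 3.13), and the xyloglucan enzyme gene XTH7 2.04 (1.29 to 2.80). The pectin methylesterase inhibitor-type genes AT4G15980 and AT5G50040 had differences of 2.27 and 2.17, the DNA-binding factor gene ORA47 2.09 and the DUF793 gene AT1G18740 2.05. At the negative end AT4G20420 had a difference of -2.56 (-3.35 to -1.78). Heat shock genes made up 4 of the 8 largest negative differences by their names or annotations. HSP81-1, an HSP90-class chaperone gene, had 1209 and 1232 reads in atcep1 C and B and 1540 and 373 reads in WT C and B, a difference of -2.11 (-2.31 to -1.91). ATHSP23.6-MITO had 209 and 305 reads in atcep1 C and B and 454 and 142 reads in WT C and B, a difference of -2.26 (-2.63 to -1.88). The heat and cold list as a whole had 0 rises and 1 fall among 6 members in atcep1 (median -0.23), and 3 rises and 4 falls among 10 in WT. The cold-response factor CBF2 had 5 and 8 reads in atcep1 C and B and 3 and 122 reads in WT C and B. With 1 library per genotype and stage, these intervals cover counting error and no test of the difference between genotypes is possible.

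**Figure D5:**
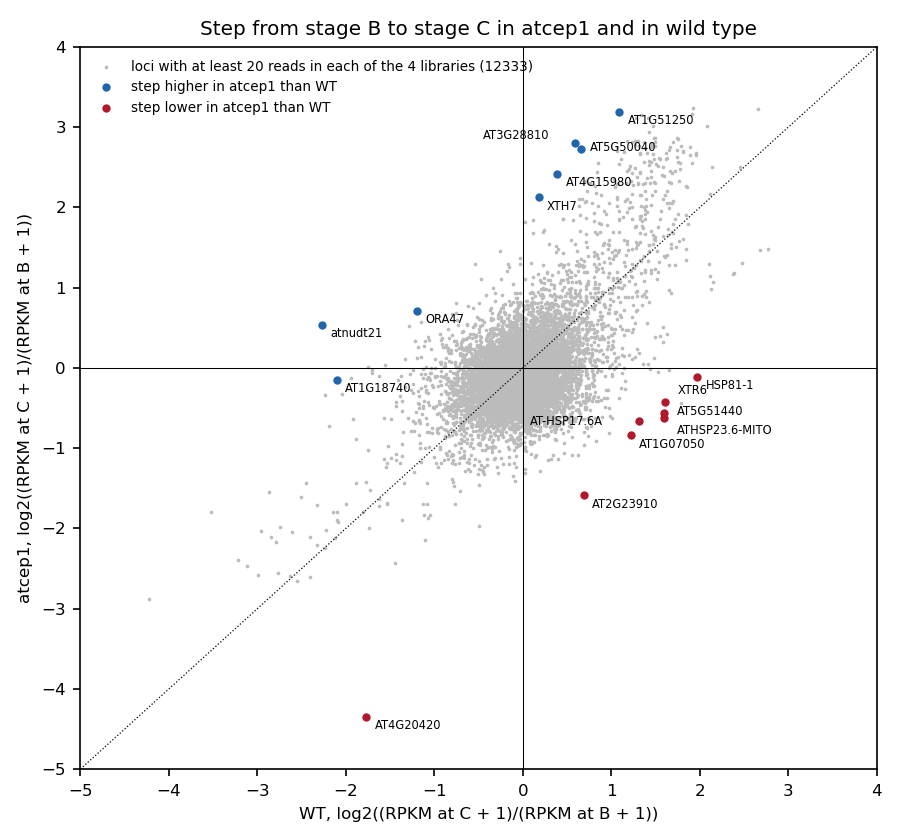
log2((RPKM at C + 1)/(RPKM at B + 1)) in atcep1 (vertical axis) and in WT (horizontal axis) for 12333 loci with at least 20 reads in each of the 4 libraries; coloured points are the 8 largest differences each way and the dotted line marks equal steps. The heat shock genes HSP81-1, ATHSP23.6-MITO, AT-HSP17.6A and AT5G51440 lie near or just below 0 in atcep1 and above 1 in WT, and AT4G20420 lies at -4.35 in atcep1 and -1.77 in WT.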

How the data were processed

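Per the labels' protocols, total RNA of flower buds was treated with DNase, poly(A) RNA was selected on oligo(dT), and cDNA made with random hexamers was sequenced on an Illumina HiSeq 2000. Strand is not stated, so reads of overlapping antisense genes may be mixed. The authors deposited, for each transcript model, a count of unique reads, an RPKM value and the percent of its length covered, per the file headers. The build is TAIR10 per the submitters' processing notes; no source used here gives the aligner or counter. Unlisted models were taken as 0 reads. Of 25964 loci, 25743 matched RefSeq (TAIR10.1), which gave symbols, coordinates and promoters; loci with near-identical copies lose reads to the unique-read rule.

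Counts and RPKM were summed over the models of a locus (3605 loci have several). Log2 ratios were computed from the deposited RPKM with a pseudocount of 1, which understates changes of low genes. Read ratios were taken per library total, with exact Clopper-Pearson bounds (SciPy 1.17.1, Python 3.11.15). With 1 library per genotype and stage no p-value was computed. TMM scaling factors came from edgeR 4.0.16 and median-ratio size factors from DESeq2 1.42.0 in R 4.3.3; neither was used for a test. The calculations were tested on simulated data.

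Named genes are CEP1, the 12 largest rises and falls among nuclear genes whose higher value is at least 10 RPKM, the 6 loci with most reads at each stage, the 8 largest step differences each way, and up to 6 members per list and 3 per family by size of log2 ratio. Other members, and the families named as such in the text, were chosen after their values were seen. The lists (25, with 315 loci) and the comparison were chosen with earlier results of these data known.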

Additional observations from a re-analysis of the deposited data

Results flagged for a closer look

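3 loci changed past 2-fold in opposite directions in the atcep1 step and the WT step; none of these differences was tested, and all rest on few reads. AT3G04184 had 0 reads at C and 4 at B in atcep1 (log2 ratio -2.79), and 6 reads at C and 2 at B in WT (log2 ratio 1.28). AT4G16240 had 3 reads at C and 0 at B in atcep1 (2.65), and 0 reads at C and 3 at B in WT (-2.74). The small nucleolar RNA locus SNOR30 had 10 reads at C and 1 at B in atcep1 (2.74), and 2 reads at C and 7 at B in WT (-1.64).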

How the results depend on the processing

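The counts of loci past 2-fold depend on the level a locus must reach. With a minimum of 1 RPKM, or with none, atcep1 had 1263 rises and 836 falls, and WT 1006 rises and 764 falls. With a minimum of 10 RPKM the WT falls numbered 252. With a pseudocount of 5 RPKM the atcep1 falls numbered 236, and WT had 326 rises and 209 falls. Counting instead the loci of at least 5 RPKM whose whole counting interval lay past 2-fold gave 542 rises and 177 falls in atcep1, and 262 rises and 177 falls in WT. TMM scaling gave 916 rises and 378 falls in atcep1 and shifted the median of all loci by 0.09. The other scalings and sums gave counts within 1.5 times those reported. Of the 219 named genes none reversed under any setting tried, and of the 116 at least 2-fold, 2 came under 2-fold with another scale. None of the medians of the 39 lists and families reversed. No paired analysis was possible because the comparison lies within atcep1 and has 1 library a side. Depth limits genes with under about 20 reads, whose intervals span several fold.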
